A study of Mus musculus with 2 samples.

Results

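Amino acid transporter genes were described in 3T3-L1, a line of mouse preadipocytes that forms adipocytes when given a hormone cocktail. The group holds every gene that the deposited table lists under a symbol of the Slc1, Slc3, Slc6, Slc7, Slc36, Slc38 or Slc43 family, each represented by its brightest probe set. Slc7a11 and Slc38a4 were left out by the rule. That gave 46 genes of 19885 with 1 symbol in the table. By family these were 17 genes of Slc6, 12 of Slc7, 7 of Slc1, 4 of Slc38 and 2 each of Slc3, Slc36 and Slc43.

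The study holds 2 samples of the line, each measured on 1 Affymetrix mouse array. The control had been transduced with an empty retroviral vector. The other had received the pMXs-puro retroviral vector, whose LTR promoter is described as weak, with Fbxl10 (Kdm2b, a histone demethylase of the JmjC class) cloned into it. Both were sampled on day 2 of differentiation, which was started after confluence with 0.25 µM dexamethasone, 0.5 mM isobutylmethylxanthine and 1 µg/ml insulin, and the culture medium held 10% fetal bovine serum. The comparison asks how Fbxl10 overexpression bears on transcript levels early in adipocyte differentiation. With 1 array per group no test was possible and no value below has a replicate check.

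The signals are intensities on a linear scale, scaled by the authors to a trimmed mean of 100 on both arrays. Their medians were 17.6 for the empty vector library and 21.3 for the other, and the median over all values, 19.4, was the threshold for calling a gene detected. Both probe sets of Fbxl10 read lower in the library labelled for its overexpression (431.6 and 350.9, 558.5 and 419.6, empty vector first). Where their probes lie relative to the cloned sequence is not given in the sources used here, so these values do not check the label. All directions given here compare the libraries by their labels, and the second is called the Fbxl10-labelled library. Adipocyte markers were lower in it, with 6 of the 6 that had a probe set past 2-fold and a summed signal of 16013 against 1774. Of all detected genes 5.31% passed 2-fold on the lower side. Of the 6 markers, 3 reached the threshold on both arrays, and Adipoq, Cd36 and Cidec were below it in the Fbxl10-labelled library. All 8 preadipocyte and fibroblast markers were detected, with summed signals of 24234 and 35118. Among them 2 were higher by 2-fold or more, beside 9.85% of all detected genes. Markers of other cell types were mostly below the threshold, with 0 of 4 neuronal, 0 of 5 epithelial, 0 of 4 hepatocyte, 1 of 4 astrocyte and 2 of 5 macrophage markers detected. The summed signals of these lists in the empty vector library ran from 18.1 for neurons to 56.9 for macrophages. In the Fbxl10-labelled library they ran from 26.8 to 81.5. In a bulk sample fewer cells of a type and less RNA per cell cannot be told apart. The part of the adipocyte and fibroblast markers in the transporter differences was not tested.

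Cells take up amino acids through carriers that differ in their substrates and in what drives them. Sodium-coupled carriers and the cationic transporters bring amino acids in, and exchangers such as LAT1 trade one amino acid for another across the membrane. Leucine, arginine and glutamine that arrive this way feed protein synthesis and the kinase complex mTORC1, and in fat cell formation they also supply carbon and nitrogen. Several of these genes, among them Slc7a5, Slc7a1, Slc1a5, Slc3a2 and Slc38a2, are known to be raised by the transcription factor ATF4 when amino acids run short.

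Promoter sequence is shown for 4 genes, to set a cationic transporter that was lower (Slc7a1) beside a heavy chain that was nearly level (Slc3a2) and a pair that was higher (Slc7a6 and Slc1a4). Each run covers 150 bases before to 20 bases after a RefSeq start of transcription, 5′ to 3′ on the gene's strand, from RefSeq on build GRCm38.p6. Slc7a1 and Slc7a6 each have a further RefSeq start that is not shown. No promoter was matched for Slc7a5 or Slc1a5, which were lower like Slc7a1. Capitals mark a match to the C/EBP-ATF response element, searched as TGATGNAAN on both strands.
Slc7a1, minus strand, chr5:148399885-148400054: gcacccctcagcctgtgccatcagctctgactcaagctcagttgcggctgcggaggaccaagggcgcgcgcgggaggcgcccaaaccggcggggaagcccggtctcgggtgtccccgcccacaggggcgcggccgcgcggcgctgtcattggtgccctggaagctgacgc
Slc3a2, minus strand, chr19:8713878-8714047: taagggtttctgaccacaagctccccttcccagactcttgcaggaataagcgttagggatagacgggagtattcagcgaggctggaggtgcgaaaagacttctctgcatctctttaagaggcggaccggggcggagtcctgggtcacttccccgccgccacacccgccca
Slc7a6, plus strand, chr8:106168704-106168873: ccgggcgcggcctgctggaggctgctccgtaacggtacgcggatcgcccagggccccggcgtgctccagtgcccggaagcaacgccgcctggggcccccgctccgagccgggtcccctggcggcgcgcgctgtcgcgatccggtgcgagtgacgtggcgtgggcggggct
Slc1a4, minus strand, chr11:20332694-20332863: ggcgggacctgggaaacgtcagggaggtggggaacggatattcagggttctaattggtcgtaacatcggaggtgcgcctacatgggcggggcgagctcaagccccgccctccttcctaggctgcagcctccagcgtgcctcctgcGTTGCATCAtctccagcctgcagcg

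The match in Slc1a4 lies on the opposite strand and spans bases -5 to 4 around the start, where -1 is the last base before it and 1 the first transcribed. RefSeq promoters were matched for 27 of the 46 genes, with 44 windows of 300 bases, and 3 of those windows, in 2 genes, held this element. Across all 32851 promoters of that length 3.95% held it. The E-box CACGTG, a palindrome, was in 5 of the 44 windows, in 5 genes, and in 7.15% of all promoters. No E-box lies in the runs shown. These are matches of letters, and no match says only that the letters are not in this window.

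Of the 46 transporter genes, 21 were detected, which means that the higher of both signals reached 19.4. Of all 19885 genes with 1 symbol, 11721 were detected. The other 25 transporter genes lay between 0.3 and 18.2 on both arrays, so no fold is given for them. These 25 include 5 of the 7 Slc6 neurotransmitter carriers and 4 of the 5 Slc1 glutamate carriers. The brightest was Slc38a2, and 10 genes reached a signal of 100 in at least 1 library. Signals of different genes come from different probes and are not ranked as levels of transcript.

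Among the genes of the group measured on both arrays, large differences were few. They fell on 4 carriers of cationic, large neutral and small neutral amino acids. Genes of these families listed under older names are outside the group and are described at the end. Slc7a5, Slc7a1 and Slc1a5 were lower by 2-fold or more in the Fbxl10-labelled library, and Slc1a4 was higher by 2-fold or more. Among the 19 transporter genes measured on both arrays that is 3 lower and 1 higher, with 15 within 2-fold. Of all 10437 genes so measured, 4.35% passed 2-fold on the lower side and 6.4% on the higher side. Over the 21 detected transporter genes the counts were 3 and 2, beside 5.31% and 9.85% of 11721 detected genes. The second gene on the higher side was Slc7a13, which passed the threshold only in the library where it was high. The median log2 difference of the 19 genes was -0.017, beside 0.033 for all genes measured on both arrays. Log2 differences are Fbxl10-labelled minus empty vector throughout.

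**Figure D1:**
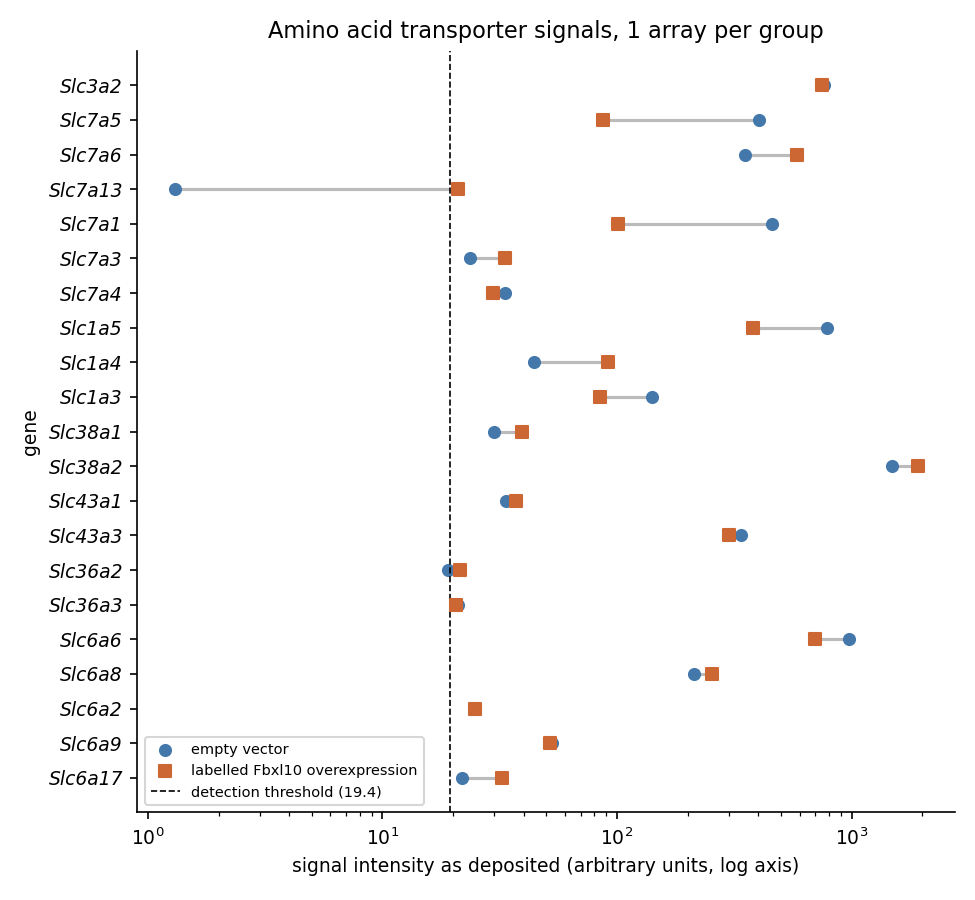
Signals of the 21 detected transporter genes on a log axis, 1 point per gene and array, with the empty vector library as circles and the Fbxl10-labelled library as squares. Slc7a5 and Slc7a1 have the widest gaps among genes above the threshold of 19.4 (dashed) on both arrays, and the left point of Slc7a13 lies far below it.

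Heteromeric transporters pair a heavy chain, a glycoprotein that carries the complex to the membrane, with a light chain that does the transport. Slc3a2, the CD98 heavy chain, read 761.0 on the empty vector array and 745.7 on the Fbxl10-labelled one, a log2 difference of -0.03. In each pair of readings below the empty vector library likewise comes first. Both arrays thus gave nearly the same reading for it. The other heavy chain, Slc3a1 of kidney and intestine, was not detected (13.2 and 12.4).

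The light chains of Slc3a2 went opposite ways. Slc7a5, or LAT1, the exchanger that brings in leucine and other large neutral amino acids, read 402.1 and 87.0. It was 4.62-fold lower in the Fbxl10-labelled library (log2 difference -2.21), and was the 59th lowest of the 10437 genes measured on both arrays. It has 1 probe set in the table, so no further probe set bears on that value. Slc7a6, or y+LAT2, which exchanges cationic for neutral amino acids, read 350.5 and 584.2, 1.67-fold higher (0.74). Its further probe set read 271.2 and 455.5, with a log2 difference of 0.75, so both probe sets placed it on the higher side by the same amount. For scale, the probe sets of a single gene differed by an SD of 0.30 on the log2 scale, over 4510 genes. That SD covers probe sets on these arrays and not separate samples.

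Slc7a13, a light chain known from the kidney, read 1.3 and 20.9. The higher signal is just above the threshold, so the difference is given as a bound of at least 1.08-fold higher. Slc7a7, Slc7a8, Slc7a9, Slc7a10 and Slc7a12 were not detected, with their highest signal at 14.2 (Slc7a7). Slc7a10, or Asc-1, is known as a surface marker of white adipocytes and read 1.7 and 8.3 at this early day.

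Cationic amino acids enter through the CAT proteins. Slc7a1, or CAT1, the main arginine and lysine importer of most cells, read 457.5 and 101.4, 4.51-fold lower in the Fbxl10-labelled library (log2 difference -2.17). It was the 63rd lowest of the genes measured on both arrays. A further probe set read 283.8 and 59.3 (-2.26), and the remaining one was below the threshold on both arrays (14.8 and 10.5). Both measured probe sets thus gave a difference of more than 4-fold. In mice Slc7a1 is also the receptor of ecotropic murine leukaemia viruses. Both samples were transduced with retrovirus, and the labels do not name its envelope. Whether transduction bears on the Slc7a1 readings was not tested.

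The other cationic carriers were dim. Slc7a3, or CAT3, read 23.5 and 33.3 (log2 difference 0.50), but the authors' deposited table gives it a log2 ratio of -0.3. Slc7a4, a relative whose transport activity is not settled, read 33.3 and 29.5 (-0.17), against 0.2 in the authors' deposited table. The direction of both is therefore not settled. Slc7a2, or CAT2, was not detected (4.9 and 15.4).

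Among the Slc1 carriers, the pair that exchanges small neutral amino acids split. Slc1a5, or ASCT2, a main route for glutamine, read 783.9 and 378.5, 2.07-fold lower in the Fbxl10-labelled library (log2 difference -1.05). Its dimmer probe set read 51.6 and 31.2 (-0.73), on the same side. Slc1a4, or ASCT1, which exchanges alanine, serine and cysteine, read 44.3 and 91.9, 2.07-fold higher (1.05). Its further probe sets read 38.2 and 64.2 (0.75) and 40.6 and 56.9 (0.49), so every probe set lay on the higher side but 1 of 3 passed 2-fold. Both genes sit at the edge of the 2-fold rule. Slc1a5 came inside 2-fold with quantile normalization (-0.99), with the trend on brightness removed (-0.97) and as the median of its probe sets (-0.89). Slc1a4 came inside 2-fold with each of the 4 scalings (0.83 to 0.94), by the authors' deposited ratio (0.8) and as the median of its probe sets (0.75).

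Glutamate carriers of the Slc1 family were nearly all dark. Slc1a3, or GLAST, a glutamate and aspartate transporter known from glia, read 141.4 and 84.5 (log2 difference -0.74). Its further probe sets measured on both arrays lay at -0.37, -0.19 and -0.18, and the authors' deposited table gives -0.2 for the brightest. A dim probe set went the other way, from 15.9 to 46.9. The size of the Slc1a3 difference thus depends on the probe set read. Slc1a1, Slc1a2, Slc1a6 and Slc1a7 were not detected.

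**Figure D2:**
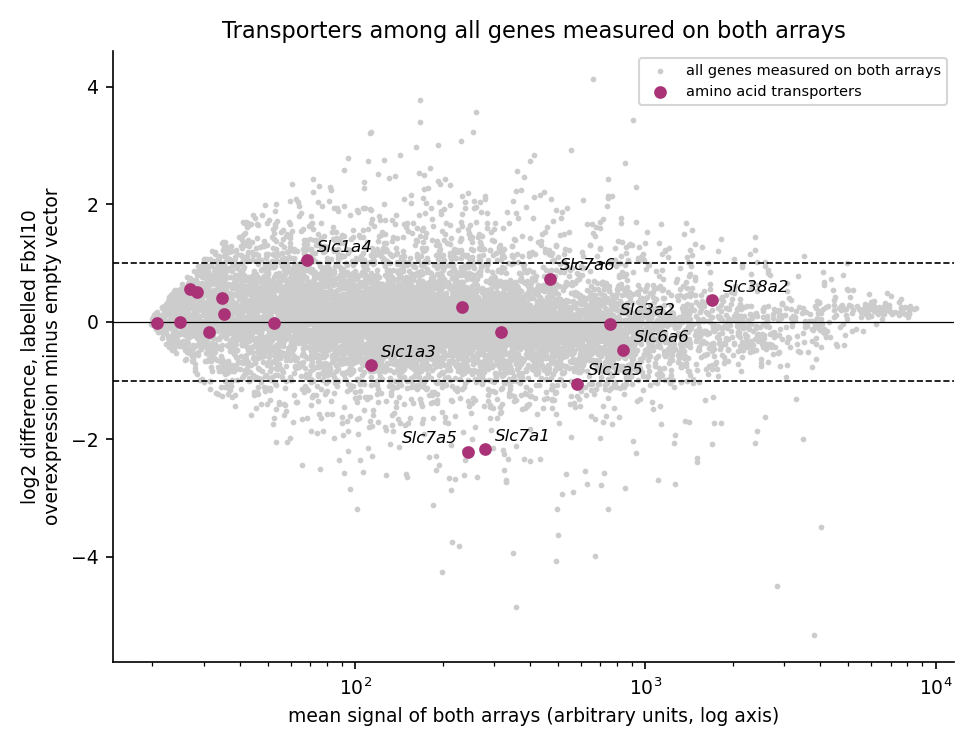
Log2 difference against the mean signal of both arrays for the 10437 genes measured on both (grey), with the 19 transporter genes in colour and the 2-fold lines dashed. Slc7a5 and Slc7a1 lie side by side below the lower 2-fold line, among few other genes of like signal, while Slc3a2 lies on 0.

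The Slc38 carriers, which bring in small neutral amino acids such as glutamine and alanine with sodium, were slightly higher. Slc38a2, or SNAT2, known to be raised when amino acids are scarce or the medium is hypertonic, read 1483 and 1911, 1.29-fold higher in the Fbxl10-labelled library (log2 difference 0.37). Its further probe sets read 340.3 and 546.4 (0.68) and 33.7 and 50.5 (0.58), so all 3 lay on the higher side. Slc38a1, or SNAT1, read 29.9 and 39.4 (0.40). Values of this size stand close to the shift between the arrays, since spike-in controls read 0.22 higher on the second array and detected probe sets 0.11 higher in the median (log2). With spike-in centring Slc38a2 stood at 0.14, its lowest over the alternatives. Its highest was 0.58, as the median of its probe sets, and quantile normalization gave 0.48. Slc38a3 and Slc38a5 were not detected.

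The 2 Slc43 genes of the group hardly differed. Slc43a2, listed under an older name, is outside the group and is described with the other observations. Slc43a1, or LAT3, a carrier of large neutral amino acids, read 33.7 and 37.0 (log2 difference 0.13), and its sign turned over the alternatives (-0.11 at the lowest). Slc43a3, which in human cells is known to carry purine bases rather than amino acids, read 337.4 and 299.5 (-0.17). Both lie inside the spread between probe sets of a gene. The 2 proton-coupled Slc36 carriers of the group stood at the threshold. Slc36a1, under an older name, is likewise outside the group and described later. Slc36a2, known as a surface marker of brown adipocytes, read 19.0 and 21.3, which is a bound of at least 1.10-fold higher with the signals as deposited. Its direction turned with 3 scalings, to -0.06 with spike-in centring, -0.11 with quantile normalization and -0.35 with the brightness trend removed. Slc36a3 read 20.9 and 20.6 (-0.02), against 0.5 in the authors' deposited table.

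The Slc6 family carries taurine, creatine, neurotransmitters and some amino acids with sodium and chloride. Slc6a6, the taurine transporter, read 976.1 and 699.4, 1.40-fold lower in the Fbxl10-labelled library (log2 difference -0.48). Its further probe sets stood at -0.19 and -0.16, so all 3 were on the lower side and less so in the dimmer ones. Slc6a8, the creatine transporter, read 212.3 and 252.7 (0.25), and its further probe set 176.1 and 252.5 (0.52). Slc6a9, the glycine transporter GlyT1, read 52.6 and 52.0 (-0.02), while its dimmer probe set stood at 0.54. The authors' deposited table gives Slc6a9 a log2 ratio of 0.6, so its direction is not settled.

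Of the carriers known from nerve terminals, Slc6a2, the noradrenaline transporter, read 24.8 on both arrays, and the authors' deposited table gives it a log2 ratio of 0.4. Slc6a17, a carrier of neutral amino acids in synaptic vesicles, read 21.8 and 32.2 (log2 difference 0.56), and its further measured probe set -0.22. Both genes are close to the threshold of 19.4. The dopamine and serotonin transporters Slc6a3 and Slc6a4 were not detected, nor was Slc6a13, which carries GABA. The same held for the glycine carrier Slc6a5 and the betaine carrier Slc6a12. The epithelial and brain amino acid carriers Slc6a7, Slc6a14, Slc6a15, Slc6a18, Slc6a19 and Slc6a20 were not detected either, with Slc6a14 the closest to the threshold (7.0 and 18.2).

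Over the whole group, 11 of the 19 genes measured on both arrays differed by more than the SD between probe sets, and 8 by less. For 10 of these genes further probe sets were measured on both arrays, and 13 of those 15 lay on the same side of 0 as the brightest. The exceptions were those of Slc6a9 and Slc6a17, both dim. The matching shares over all genes were not counted, so neither count is read as particular to the transporters. Of the 9 transporter genes with a mean signal under 100, 1 was past 2-fold, and of the 10 brighter ones 3 were. Over all genes measured on both arrays the share past 2-fold was 10.8% under a mean signal of 100 and 10.7% above it.

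**Figure D3:**
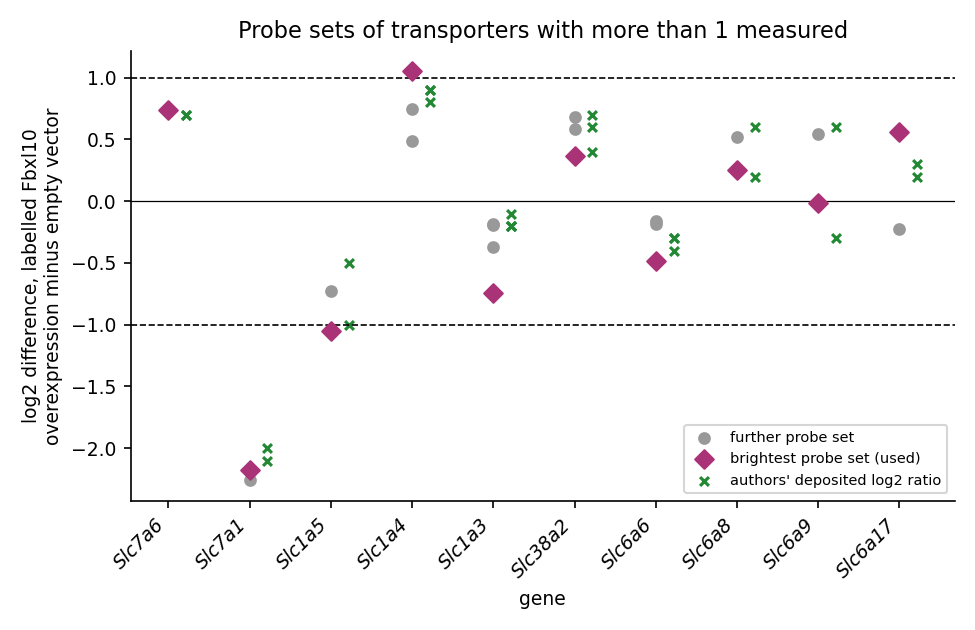
Log2 differences of the probe sets measured on both arrays for the 10 transporter genes that have several, with the brightest as a diamond, further ones as circles and the authors' deposited log2 ratios as crosses. The probe sets of Slc7a1 lie together below -2, those of Slc7a6 coincide at about 0.74, and those of Slc6a9 and Slc6a17 fall on both sides of 0.

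Genes that sense amino acids for mTORC1, the kinase complex that couples their supply to growth, were mostly within 2-fold. Of 38 with a probe set, 34 were measured on both arrays. Past 2-fold were 1 on the higher and 0 on the lower side, beside 6.4% and 4.35% of all 10437 genes so measured, which are the shares to set beside each list below. The median log2 difference was 0.06, beside 0.033 for all of those genes, of which 5480 lay above 0 and 4949 below. Sesn3, a sestrin that restrains mTORC1, was highest, at 511.1 and 1065 (2.08-fold higher). Mlst8, an mTOR partner, was lowest, at 87.8 and 57.7 (-0.61). All the rest lay within 2-fold. Sesn3 (log2 difference 1.06) sits at the edge of the 2-fold rule. So do Laptm4b (1.06) and Trib3 (-1.02) in the lists below. The lists were not run under the alternatives in processing.

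Of the other carriers of amino acids and peptides, 13 were measured on both arrays. Past 2-fold were 2 on the lower side (4.35% of all genes) and 0 on the higher (6.4%), 10 lay below 0, and the median was -0.20. Slc25a22, a mitochondrial glutamate carrier, read 153.0 and 62.9 (2.43-fold lower). Slc16a10, or TAT1, which lets aromatic amino acids leave the cell, read 47.3 and 21.8 (2.17-fold lower). Slc15a2, a peptide transporter, was highest (85.5 and 144.5, log2 difference 0.76).

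Of the partners and regulators of transporter turnover, 14 were measured on both arrays. Past 2-fold were 3 on the higher side (6.4% of all genes) and 0 on the lower (4.35%), 11 lay above 0, and the median was 0.26. Laptm4b, a lysosomal membrane protein that in human cells is known to recruit LAT1 and the CD98 heavy chain to lysosomes, read 564.8 and 1174 (2.08-fold higher). Sgk1, a kinase induced by glucocorticoids, read 340.3 and 974.5 (2.86-fold higher). Ajuba, a LIM protein, read 68.7 and 280.6 (4.08-fold higher). Cd44, an adhesion receptor, was lowest (1277 and 757.2, log2 difference -0.75). Sgk3 was below the threshold in the Fbxl10-labelled library (48.5 and 14.1) and is outside these counts.

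Of the enzymes that make or use the transported amino acids, 21 were measured on both arrays. Past 2-fold were 2 on the higher side and 1 on the lower, counts near the shares of all genes (6.4% and 4.35%), and the median was -0.04. Ass1, argininosuccinate synthase, which makes the precursor of arginine from citrulline, read 126.2 and 591.4 (4.69-fold higher). Pycr1, the last enzyme of proline synthesis, read 53.9 and 172.5 (3.20-fold higher). Odc1, which turns ornithine into putrescine, read 927.1 and 420.0 (2.21-fold lower).

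Of the kinases and transcription factors of the amino acid response, 20 were measured on both arrays. Past 2-fold were 3 on the lower side (4.35% of all genes) and 0 on the higher (6.4%), 15 lay below 0, and the median was -0.40, beside 0.033 for all genes. The 3 were Atf5 (654.9 and 295.2), Cebpg (786.8 and 367.4) and Trib3 (50.2 and 24.7), of which the first and second are bZIP factors and the third a pseudokinase induced by ATF4. Tfe3, a lysosomal gene regulator, was highest (log2 difference 0.33). Named after their values were seen, Atf4 read 1183 and 783.7 (-0.59), Myc 676.4 and 424.4 (-0.67), and Asns, asparagine synthetase, 1030 and 1003 (-0.04).

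**Figure D4:**
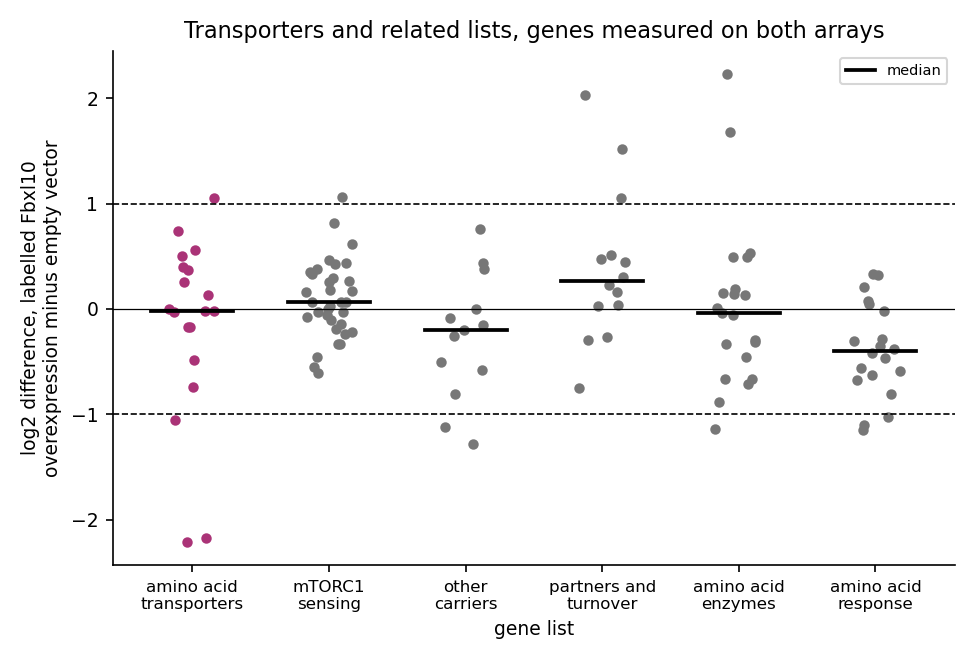
Log2 differences of the 19 transporter genes and of the 5 related lists, genes measured on both arrays, with the median of each as a bar and the 2-fold lines dashed. The medians run from -0.40 for the amino acid response to 0.26 for partners and turnover.

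Slc7a1 and Slc7a5 were past 2-fold under all 12 alternatives in processing. Values ran between -2.39 and -2.0 for Slc7a1 and between -2.43 and -2.21 for Slc7a5. Both genes took another value with median centring, quantile normalization, spike-in centring, the brightness trend removed and the authors' deposited ratio. Slc7a1 also did with the median over its detected probe sets (-2.22). The remaining alternatives returned the deposited values of these genes by construction, so they add no check. Slc1a5 was past 2-fold in 9 of 12, and Slc1a4 in 5 of the 11 that counted it. Each of those for Slc1a4 returned its value as deposited (1.05), so they add no check. Of those for Slc1a5, only median centring (-1.16), spike-in centring (-1.27) and the authors' deposited ratio (-1) gave another value than the deposited signals. Slc7a6 stayed between 0.52 and 0.80. Slc3a2 ran from -0.25 to 0.07, on both sides of 0.

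**Figure D5:**
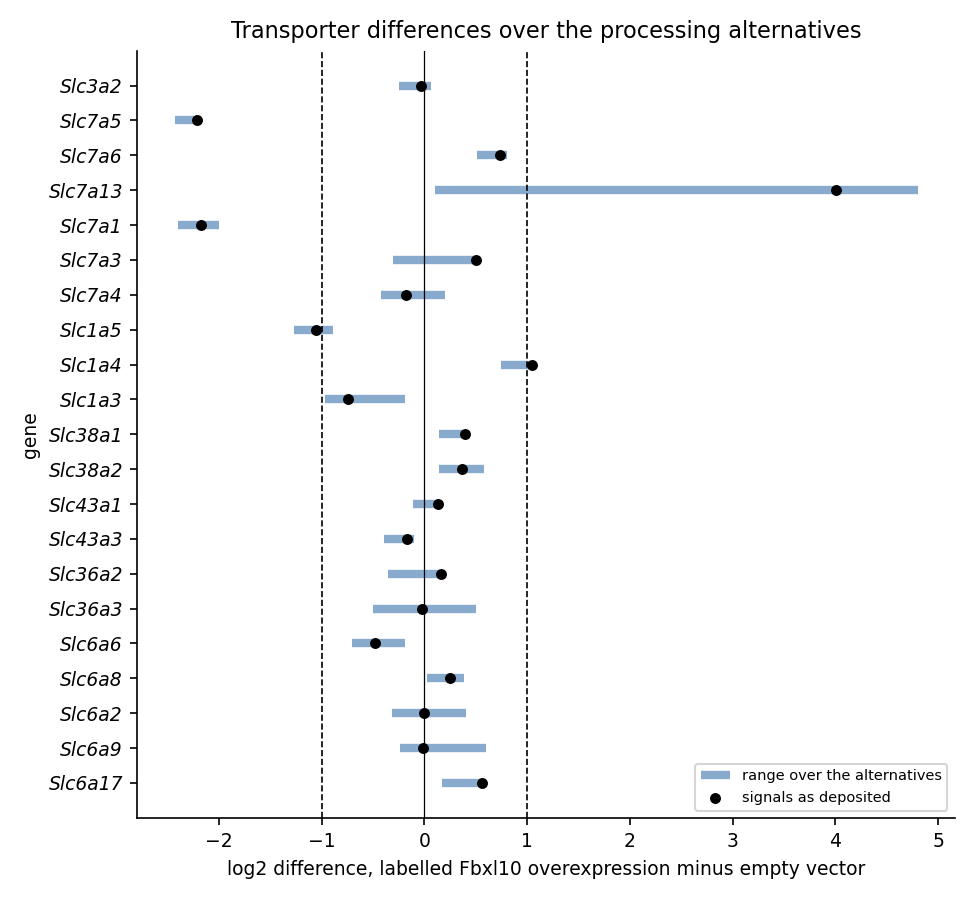
Log2 difference of each detected transporter gene with the signals as deposited (dot) and its range over the alternatives (bar), with the 2-fold lines dashed. The bars of Slc7a5 and Slc7a1 stay at or below -2, those of Slc1a5 and Slc1a4 cross the 2-fold lines, and that of Slc7a13 reaches from 0.11 to 4.80.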

How the data were processed

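Total RNA from 2 samples was biotin labelled and hybridised to 1 Affymetrix array each, per the labels' protocols. Signal intensities were deposited for 45101 probe sets, 1 per array, which the authors had scaled to a mean of 100 after trimming 2% at each end, and a deposited log2 ratio to 1 decimal. The software behind them is not given in the sources used here. A second deposited table of intensities held the same values, with 0 differing. Groups follow the treatment in the labels.

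Log2 differences were computed from the intensities as deposited with pandas 2.3.3. Of the probe sets, 33957 had 1 symbol. Each gene was read at the probe set with the highest mean signal. A gene was detected where its higher signal reached 19.4, the median of all values, and measured on both arrays where both did. Where 1 signal was below 19.4, the brighter one was divided by 19.4 and the result written as "at least". The call is a rule of size, 2-fold, and precision is limited by having 1 array a group. Every detected transporter gene is named, 1 of the 25 others is not reported here, and of the related lists each gene past 2-fold on both arrays with the highest and the lowest. Older symbols in those lists were matched through RefSeq synonyms (GRCm38.p6). The promoter runs and the motif search used RefSeq starts on the same build. Windows searched ran from 250 bases before to 50 bases after a start. The members and lists were chosen with earlier results of these data known. The steps were tested on simulated data. The 12 alternatives were 4 scalings, both other deposited values, 4 treatments of dim signals and 2 choices of probe set. A further one was added after seeing the data.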

Additional observations from a re-analysis of the deposited data

How the results depend on the processing

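With the signals as deposited, 2 of 21 detected transporter genes passed 2-fold on the higher side and 3 on the lower. The count of higher genes was 1 with median centring, quantile normalization, spike-in centring, the authors' deposited ratio, both arrays at the threshold, signals raised to the threshold and the median over the detected probe sets. It was 0 with the brightness trend removed and with a higher signal of at least 100. Without a filter on dim values it was 13, and the count of lower genes 6, since 25 dim genes were then counted, beside 17.6% and 10.6% of all 19884 genes. The lower count was 2 with quantile normalization, the brightness trend removed and the median over the detected probe sets, where Slc1a5 was within 2-fold, and otherwise 3. The median was 0.00 as deposited and -0.33 with a signal of at least 100, which left 10 genes (-0.02 for all genes). It was -0.22 with spike-in centring, beside -0.16 for all detected genes. The second deposited table and leaving out probe sets ending in _x_at or _s_at gave the same counts. With 4 detected genes under older names added, an alternative chosen after seeing the data, 3 were higher and 3 lower, with a median of 0.16. Over single genes, 222 of 239 values moved by less than the SD between probe sets, 17 moved further, and 0 of the genes past 2-fold changed sign. The 239 include values that an alternative leaves as deposited by its construction, so the 222 overstate how stable the values are. The cause of these shifts was not tested. No paired analysis was possible because each group has 1 sample.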

Other observations

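The table lists 8 further genes of these families under older names, which RefSeq synonyms resolve and the rule for the group does not take. Of these, 4 were detected, and all 4 were measured on both arrays. All 4 read higher in the Fbxl10-labelled library, beside 5480 of all 10437 genes measured on both arrays. At least 2-fold higher was 1 of the 4, beside 6.4% of the 10437. The 8 genes were looked up after the data had been seen. Slc36a1 (listed as 5830411H19Rik), or PAT1, a proton-coupled amino acid carrier of lysosomes and the plasma membrane, read 42.9 and 86.7, empty vector first, 2.02-fold higher (log2 difference 1.02). Slc38a9 (9130023D20Rik), the lysosomal arginine sensor for mTORC1, read 76.8 and 126.8 (0.72), and the 4 probe sets measured on both arrays ran from 0.72 to 1.13. Slc43a2 (BC042513), or LAT4, which lets large neutral amino acids out of the cell, read 34.3 and 63.1 (0.88). Slc38a10 (1810073N04Rik) read 494.4 and 629.9 (0.35), with 6 probe sets between 0.34 and 0.49. The other 4, Slc6a11, Slc6a20a, Slc6a21 and Slc7a14, stayed at or below 10.6 on both arrays.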
